A study of Caenorhabditis elegans with 2 samples.

Results

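The genes of Wnt ligands and of the enzyme that prepares them for secretion were examined for SMA-9 peaks in second larval stage (L2) Caenorhabditis elegans. The set is 6 listed genes of 19973 protein-coding genes: mom-1, which encodes the Porcupine homologue, and the Wnt ligand genes mom-2, egl-20, lin-44, cwn-1 and cwn-2. A peak was counted for a gene when its summit lay in the gene body or up to 5 kb upstream of the gene start in the Ensembl WBcel235 annotation, which has the coordinates of the ce11 lists. Of the 30000 peaks in the pooled list, 19 met this rule, and 1 of them was among the 125 peaks of the authors' thresholded list. The set was chosen by its peak ranks and signals in these lists, above all those of mom-1, so ranks and signals are given as a description and were not tested.

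The chromatin immunoprecipitation and sequencing (ChIP-seq) libraries came from whole L2 larvae of mixed sex in 1 group with 2 biological replicates. Both replicates were strain OP130, with the genotype unc-119(ed3) III; wgIs130, and the precipitated protein was an eGFP fusion of SMA-9. SMA-9 is a zinc finger protein related to fly Schnurri that works alongside SMAD factors downstream of the BMP-like ligand of worms. The labels name sma-9 as the antibody target and do not state which promoter drives the fusion, and whole larvae do not show in which cells a site was occupied. All comparisons are between loci within these 2 libraries, and no control library was analysed here.

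Wnt proteins are secreted signals that set cell polarity, cell fate and the direction of migration. In the sending cell, Porcupine, an acyltransferase of the endoplasmic reticulum membrane, attaches a lipid to the Wnt, and MIG-14, the homologue of Wntless, carries the modified ligand to the surface. In the receiving cell, Frizzled receptors can act through Dishevelled on beta-catenins and the TCF factor POP-1, and Ror and Ryk type receptors also bind Wnts. In the worm, MOM-2 polarises an early embryonic blastomere, EGL-20 from the tail directs neuroblast migration, LIN-44 orients divisions in the tail, and CWN-1 and CWN-2 act with the other ligands in neuronal migration and axon guidance.

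The windows under the summits of 5 pooled peaks are shown, because 4 of them were the pooled peaks of these genes present in both replicate lists and the other was the single pooled peak of egl-20, next to its start. Each is 200 bases of the RefSeq WBcel235 assembly centred on the summit, written 5′ to 3′ on the strand of the named gene. Capitals mark every match, on either strand, to the SMAD box GTCT, the GC-rich SMAD site GGCGCC, the repeat motif GAGAGA, the E-box CACGTG, the TCF core CTTTGA, the GATA site AGATAA or its variant form TGATAA. The mom-1 windows lie at X:6296472-6296671 (plus strand, summit 3460 bp into the gene) and X:6295435-6295634 (plus strand, 2423 bp into the gene). That of mom-2 lies at V:8353570-8353769 (plus strand, 2318 bp upstream), that of cwn-2 at IV:10064461-10064660 (plus strand, 3255 bp upstream) and that of egl-20 at IV:9815618-9815817 (minus strand, 186 bp upstream). The nearest coding start was that of another gene for the mom-1 intron (cest-16), mom-2 (srsx-22) and cwn-2 (ipla-7) summits.
mom-1 intron: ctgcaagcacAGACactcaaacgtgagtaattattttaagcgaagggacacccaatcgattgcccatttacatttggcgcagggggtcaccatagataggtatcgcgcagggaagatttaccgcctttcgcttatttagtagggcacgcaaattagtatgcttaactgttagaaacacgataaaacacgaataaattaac
mom-1 exon: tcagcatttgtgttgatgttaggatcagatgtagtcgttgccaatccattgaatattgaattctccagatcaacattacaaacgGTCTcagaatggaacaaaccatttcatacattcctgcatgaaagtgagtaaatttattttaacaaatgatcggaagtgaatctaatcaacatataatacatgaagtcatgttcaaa
mom-2 upstream: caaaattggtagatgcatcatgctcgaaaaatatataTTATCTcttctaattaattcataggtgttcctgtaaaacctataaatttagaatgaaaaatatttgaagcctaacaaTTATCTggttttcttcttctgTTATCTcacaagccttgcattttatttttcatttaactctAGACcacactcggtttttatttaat
cwn-2 upstream: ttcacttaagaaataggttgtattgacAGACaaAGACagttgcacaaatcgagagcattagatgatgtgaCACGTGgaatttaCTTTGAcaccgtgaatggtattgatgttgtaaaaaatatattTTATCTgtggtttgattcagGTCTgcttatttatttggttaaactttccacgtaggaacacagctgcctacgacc
egl-20 upstream: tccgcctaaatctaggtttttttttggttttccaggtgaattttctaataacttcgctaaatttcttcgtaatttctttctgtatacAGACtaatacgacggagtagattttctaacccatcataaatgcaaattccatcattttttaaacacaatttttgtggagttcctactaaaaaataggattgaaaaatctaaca
The strongest window, in mom-1, held a single match, a GTCT on the minus strand at bases 11 to 14. This match lay in the first 22 bases of the window, which are coding bases of exon 7, and the intron part held none. The cwn-2 window held 6 matches, namely GTCT at 3 places, CACGTG at bases 71 to 76, CTTTGA at bases 84 to 89 and AGATAA at bases 126 to 131. In the mom-2 window AGATAA occurred at 3 places on the minus strand.

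Signal at these genes was uneven: a single strong peak lay in an intron of mom-1, and the other 18 pooled peaks were far weaker than it. The median signal of these 18 was 15.8, against 14.1 over all pooled peaks. The authors label the pooled and replicate lists as peaks and background, so these 18 are not shown to be bound sites. A thresholded summit lay in the window of 1 of the 6 genes, mom-1, against 0.766% of all protein-coding genes (153 of 19973), a share given as background since mom-1 was listed with this peak known. The mom-1 peak had a pooled signal of 78.2 (rank 7), a signal of 53.9 in replicate 1 (rank 8) and of 21.5 in replicate 2 (rank 25). Signal is the authors' peak value in column 7 of the lists, its scale is not stated, and rank 1 is the highest signal of a list. Divided by the median of its own list, the signal was 5.53 in the pooled list, 5.67 in replicate 1 and 3.39 in replicate 2. The strongest of the other 18 pooled peaks, upstream of mom-2, had a signal of 20.6 (rank 2774), so the mom-1 peak was 3.80 times as strong. The thresholded list ended at a signal of 34.6 and the next pooled peak had 34.5, so no peak of these genes lay near that boundary. The count was also 1 of 6, mom-1, with 2 kb upstream (background 0.451% of coding genes), with 10 kb upstream (1.28%), with the upper 62 peaks of the thresholded list (0.355%), with the strongest 125 peaks of replicate 2 alone (0.931%) and with those of replicate 1 alone (0.756%). These settings could not remove mom-1, because its summit lay in the gene body and ranked 7, 8 and 25. By the nearest protein-coding start, a rule chosen after the data were seen, the count was 0 of 6 (background 0.571%).

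**Figure D1:**
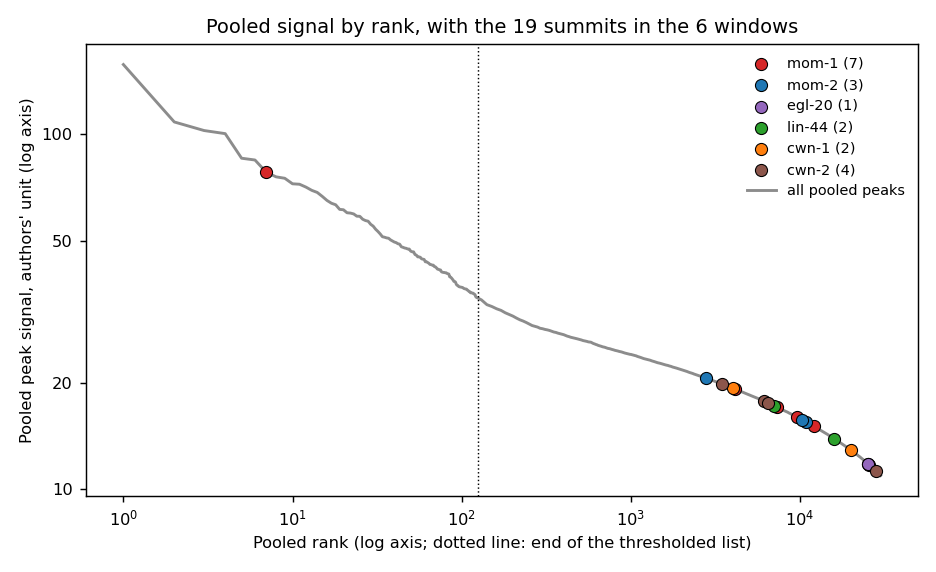
Pooled peak signal (authors' unit, log axis) against pooled rank (log axis) for all pooled peaks (grey line) and the 19 summits in the windows of the 6 genes (coloured points, number per gene in brackets). The mom-1 peak of rank 7 stands left of the dotted line that ends the thresholded list, and the other 18 lie at rank 2774 or below.

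mom-1 (WBGene00003394, X:6293112-6298305, plus strand) has 1 annotated transcript with 8 exons. The summit of its strong peak, at X:6296572, lay in intron 7, the last and longest of the gene (X:6296494-6297792, 1299 bp), 79 bp past the end of exon 7 and 1221 bp before exon 8. The peak spans X:6296380-6296763 and so also covers exon 7 itself. The gene's own start was 3460 bp away, and the nearest start of any gene was that of cest-16, 3370 bp downstream of the summit on the same strand. By nearest start this peak would therefore be given to cest-16 and not to mom-1. Of the 37 thresholded peaks on X it was second by signal, and the nearest other thresholded summit lay 117591 bp away (rank 63).

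The position of the mom-1 peak was nearly the same in the separate lists, while its strength over the list median was higher in replicate 1. Its summits in the pooled, replicate 1 and replicate 2 lists fell within 3 bp of each other. Over the 120 thresholded peaks present in all 3 lists the median spread was 45 bp, and 7 peaks, mom-1 included, had a spread of 3 bp or less. It was 1 of 9 thresholded peaks that ranked within the strongest 25 of each replicate. Its log2 ratio of replicate 1 to replicate 2 signal, each divided by the list median, was 0.74, against a median of 0.38 (SD 0.82 over peaks) for those 120. The authors' score in column 9, whose scale is unknown, was at the highest value of the list for this peak in all 3 lists, a value shared by 68 peaks of the pooled list. At the other 18 pooled peaks of these genes the score lay between -0.0677 and 0.00918.

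The thresholded peaks most like the mom-1 peak were sought by the Euclidean distance of log10 rank over the 3 relaxed lists. The nearest, at a distance of 0.225, had pooled rank 8 and ranks 11 and 17 in replicates 1 and 2. It lay between genes on X, 1537 bp from the start of an unnamed tRNA gene (WBGene00014538). The next, at 0.445, lay between genes on X with the start of the noncoding gene T01B10.13 nearest and ranked 14, 17 and 26 in the pooled list and the replicates. The third, at 0.571, lay in an exon of K08B12.6 on V and ranked 6, 6 and 7. None of these was at a Wnt pathway gene on the list used here.

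The window of mom-1 held 6 further pooled peaks, all with a signal of 19.2 or less, and none of them in intron 7. A count of 7 or more pooled peaks was found in 3.24% of all coding windows, and the mom-1 window of 10194 bp was longer than the median of 7027 bp. In the gene body, a peak with a signal of 17.0 (rank 7322) had its summit in coding exon 5 and was present in both replicates, at ranks 17430 and 17446. Peaks of signal 11.7 (rank 25627) and 19.2 (rank 4155) had summits in the last exon, in coding sequence and in the 3′ UTR, and were present in replicate 1 alone. Upstream of mom-1, peaks of signal 15.1 and 16.0 lay in lev-9, the divergent neighbouring gene, which encodes a scaffold protein of acetylcholine receptor clusters, in a coding exon and an intron. The nearest start of any gene to both was that of the noncoding gene T07H6.7, at 2271 and 1628 bp. The peak nearest the mom-1 start lay 1046 bp upstream with a signal of 11.8 (rank 25370), closer to the start of lev-9 at 334 bp. Nearest of all to that peak was the start of a tRNA gene (WBGene00023133), at 283 bp. Replicate 1 had a separate, weaker peak in intron 7 (signal 10.1, rank 12077), 213 bp from the pooled summit.

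**Figure D2:**
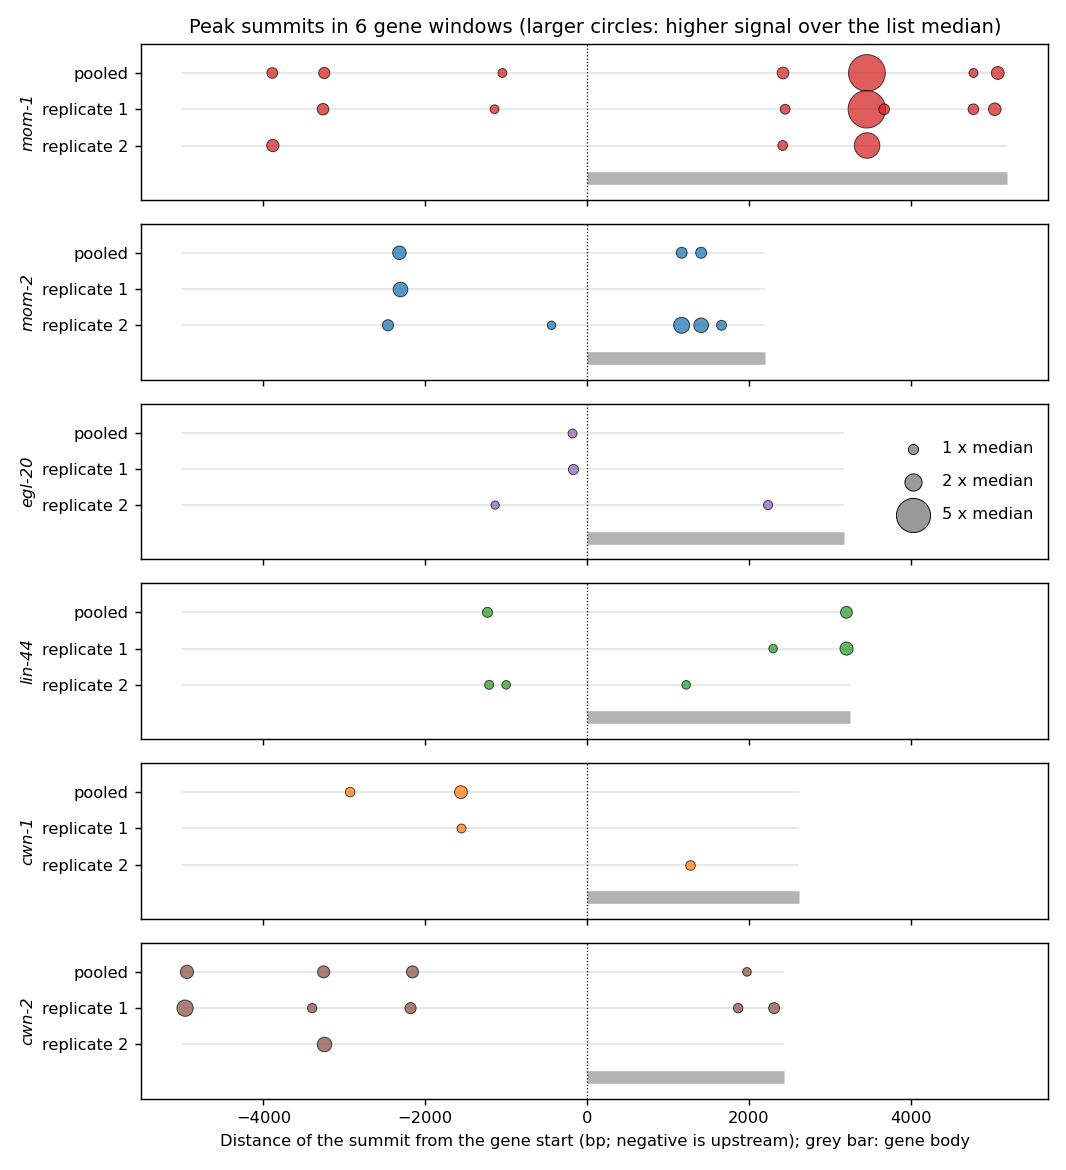
Summit positions (x axis, bp from the gene start) in the pooled, replicate 1 and replicate 2 lists (rows of circles) for each of the 6 genes, with circle area growing with signal over the list median and a grey bar for the gene body. The large circles of mom-1 at 3460 bp recur in all 3 lists at 5.53, 5.67 and 3.39 times the median, while no other circle exceeds 1.87 times the median.

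The 5 ligand genes had no thresholded peak, and their best pooled peaks ranked between 2774 and 25280. In the order of those ranks the genes were mom-2 (signal 20.6), cwn-2 (19.8), cwn-1 (19.3), lin-44 (17.2) and egl-20 (11.8). Without a scale or depth for the signal the difference between neighbours in this order has no error, and the order itself was not kept by the replicates. In replicate 1 the best peaks had signals of 15.5 at mom-2, 17.8 at cwn-2, 7.92 at cwn-1, 13.3 at lin-44 and 9.43 at egl-20. In replicate 2 they had 11.5 at mom-2, 10.2 at cwn-2, 5.89 at cwn-1, 5.34 at lin-44 and 5.48 at egl-20. mom-2 and cwn-2 thus had the higher values in either replicate, and each of the other genes had a best peak below its list's median signal in at least 1 replicate. The list medians were 14.1 in the pooled list, 9.50 in replicate 1 and 6.34 in replicate 2.

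mom-2 (WBGene00003395, V:8355988-8358185, plus strand) had 3 pooled peaks. The strongest lay between genes, 2318 bp upstream of the start and 123 bp upstream of a pseudogene (WBGene00044126). The coding start nearest to it was that of srsx-22, at 1999 bp, and not that of mom-2. This peak ranked 1663 in replicate 1 and 10416 in replicate 2, where its summit was shifted by 142 bp. The other peaks lay in a coding exon, 1170 and 1411 bp into the gene, with signals of 15.5 and 15.7. Their presence differed by replicate: the list of replicate 2 had them at ranks 965 and 2085, with summits at the same bases as in the pooled list, while the list of replicate 1 had no peak there. Absence from that list gives no signal value, so their strength in replicate 1 is unknown. With 2 kb upstream the best rank of mom-2 was 10319.

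cwn-2 (WBGene00000858, IV:10067816-10070251, plus strand) had 4 pooled peaks, 3 of them upstream. The strongest, 4945 bp upstream, lay 22 bp before the start of the divergent phospholipase gene ipla-7 and ranked 701 in replicate 1, with no overlapping peak in replicate 2. The peak 3255 bp upstream (signal 17.7, rank 6095) was the one present in both replicates, at rank 21186 in replicate 1 and 2159 in replicate 2. In replicate 1 its summit was shifted by 142 bp. The coding start nearest to this peak was that of ipla-7, at 1712 bp, and not that of cwn-2. A peak 2157 bp upstream (signal 17.5) was nearest the start of cwn-2 itself. The last, in an intron, had the lowest signal of all 19 peaks, 11.3 (rank 28111), and was the best that remained with 2 kb upstream. With 10 kb upstream the best rank was 381, for a peak 7542 bp away in an intron of ipla-7 that ranked 229 in replicate 1 and 23508 in replicate 2.

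The remaining ligand genes had 5 pooled peaks, none of them present in both replicates. At cwn-1 (WBGene00000857, II:130983-133598, minus strand) the stronger peak (signal 19.3, rank 4014) lay 1558 bp upstream, 310 bp before the start of the divergent gene K10B4.1, and ranked 24306 in replicate 1. The weaker (12.9, rank 20034) lay in a coding exon of K10B4.1 and had no overlapping peak in either replicate. At lin-44 (WBGene00003029, I:4126056-4129310, plus strand) a peak in the 3′ UTR had a signal of 17.2 and rank 3801 in replicate 1, and a peak 1230 bp upstream had 13.9 and rank 22815 in replicate 2. The nearest coding start to the 3′ UTR summit was that of the convergent gene let-504, and the summit lay 2961 bp downstream of that start. The egl-20 peak (WBGene00001188, IV:9812357-9815532, minus strand) had a signal of 11.8, below the median of the list, and rank 15349 in replicate 1. It was the only pooled peak of the 19 within 500 bp of its own gene's start.

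Of the 19 summits, 8 lay in the body of the listed gene and 3 more lay upstream with its start as the nearest coding start. Counted wherever the summit lay, the gene's own start was the nearest coding start for 7 of 19 peaks (36.8%), against 49.4% of all pairs of a coding gene and a pooled peak in its window. Summits lay between genes for 8 of the 19, in coding exons for 6, in introns for 3 and in a 3′ UTR for 2. Among all pooled peaks 35.1% lay between genes, 22.5% in coding exons, 32.5% in introns and 4.11% in a 3′ UTR. Peak density was 3.89 pooled peaks per 10 kb over the 6 windows, against 3.01 per 10 kb over all coding windows. By gene it was 6.87 at mom-1, 5.38 at cwn-2, 4.17 at mom-2, 2.63 at cwn-1, 2.42 at lin-44 and 1.22 at egl-20.

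Of the 19 pooled peaks, 4 were overlapped by at least 1 bp in both replicate lists (21.1%, exact 95% Clopper-Pearson interval 6.05% to 45.6%, for counting error over peaks only), against 33.8% of all 30000 pooled peaks. Some of the 19 overlap each other, as in the mom-2 exon, so they are not independent, and the share was not tested. Without the mom-1 peak the number was 3 of 18 (16.7%). A peak of replicate 1 overlapped 14 of the 19 (73.7%, against 69.5% of all pooled peaks) and a peak of replicate 2 overlapped 8 (42.1%, against 56.7%). In the replicate lists themselves these windows held 17 peaks in replicate 1, of which 16 overlapped a pooled peak (94.1%, against 68.9% of all peaks of that replicate), and 15 in replicate 2, of which 10 did (66.7%, against 57.3%). The 5 peaks of replicate 2 that did not included a peak in a coding exon of cwn-1 (rank 18235) and a peak in an intron of egl-20 (rank 21538), the best of each gene in that list.

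**Figure D3:**
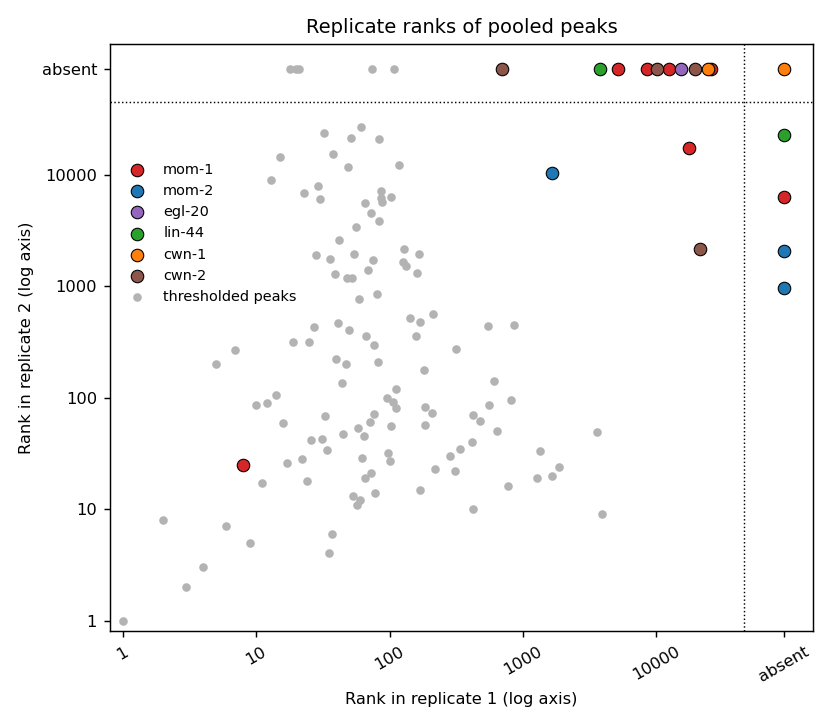
Rank in replicate 1 (x, log axis) against rank in replicate 2 (y, log axis) of the overlapping peak for the 19 pooled peaks of the 6 genes (coloured) and the 125 thresholded peaks (grey), with peaks that have no overlapping peak placed at "absent". The mom-1 peak lies at ranks 8 and 25, and 3 of the other 18 are present in both replicates.

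The 200 bp window of the strong mom-1 peak had 42.5% G and C, the fourth highest of the 19, which ranged from 27.5% to 44.5%, and 12.4% of all pooled peaks had more. Over the 19 windows GC averaged 35.7% (SD 5.47), against 34.7% (SD 6.84) over all pooled peaks, and 87 of the 125 thresholded peaks had a higher GC than the mom-1 peak. GTCT was in 16 of the 19 windows (84.2%), against 60.7% of all pooled windows and 88.8% of thresholded windows. In 100 bp windows it was in 10 of 19 (52.6%), against 37.2% of all pooled windows. GAGAGA was in 3 windows (15.8%), at mom-2, lin-44 and cwn-2, against 10.4% of all. The mom-1 peak did not hold it, while 55.2% of thresholded windows did. CACGTG was in 1 window (5.26%), against 3.40% of all, CTTTGA in 3 (15.8%) against 15.8%, and AGATAA in 3 (15.8%) against 12.7%. GGCGCC was in 0 of the 19, against 1.27% of all pooled windows, and so was the variant TGATAA, against 19.97%.

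Other genes of the Wnt pathway were read in the same way from a list of 26 genes. A thresholded summit lay in the window of 1 of the 26, gsk-3, against the same background of 0.766%. The best pooled ranks of the 24 genes with any pooled peak had a median of 6602, against 7878 for all 17540 coding genes with a peak. The windows of these 24, from 7701 bp at mig-5 to 27414 bp at lit-1, were all longer than the coding median of 7027 bp. Best ranks were not adjusted for window length. The 6 ligand and Porcupine genes were chosen by these ranks, so their median of 3728 is a description. It became 10197 in the replicate 2 list alone, against 7570 for all coding genes with a peak there. In the replicate 1 list alone it was 2732, against 7702, and with 2 kb upstream it was 8661, against 10019. No pooled summit lay in the windows of kin-19, a casein kinase, and snx-3, a sorting nexin of Wnt secretion.

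The gsk-3 peak, near the kinase of the beta-catenin destruction complex, had a signal of 36.4 (rank 109) and lay 3149 bp upstream in a coding exon of Y18D10A.4, whose start was also the nearest. It ranked 161 in replicate 1 and 1315 in replicate 2, beyond the strongest 125 of either list, and fell outside the window with 2 kb upstream. Secretion genes were led by mig-14 at rank 5473, with a summit 3729 bp upstream and the start of R06B9.5 nearest. Of the 7 genes grouped as receptors and co-receptors, the best was vang-1, at rank 1978 in its own intron, ranked 2198 and 28544 in replicates 1 and 2. It encodes the Van Gogh homologue, which is not a Frizzled, Ror or Ryk type receptor. The best of the others in this group was the Frizzled gene lin-17, at rank 3346. The secreted Frizzled-related gene sfrp-1 had a single peak of rank 10758. Of the Dishevelled genes, mig-5 was best at rank 1835, 153 bp upstream of its start and at ranks 1001 and 13060 in replicates 1 and 2. The beta-catenin gene bar-1 had 7 pooled peaks, the best of rank 2419 in an intron. The kinase gene lit-1 was at 6295 and the TCF gene pop-1 at 25768.

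**Figure D4:**
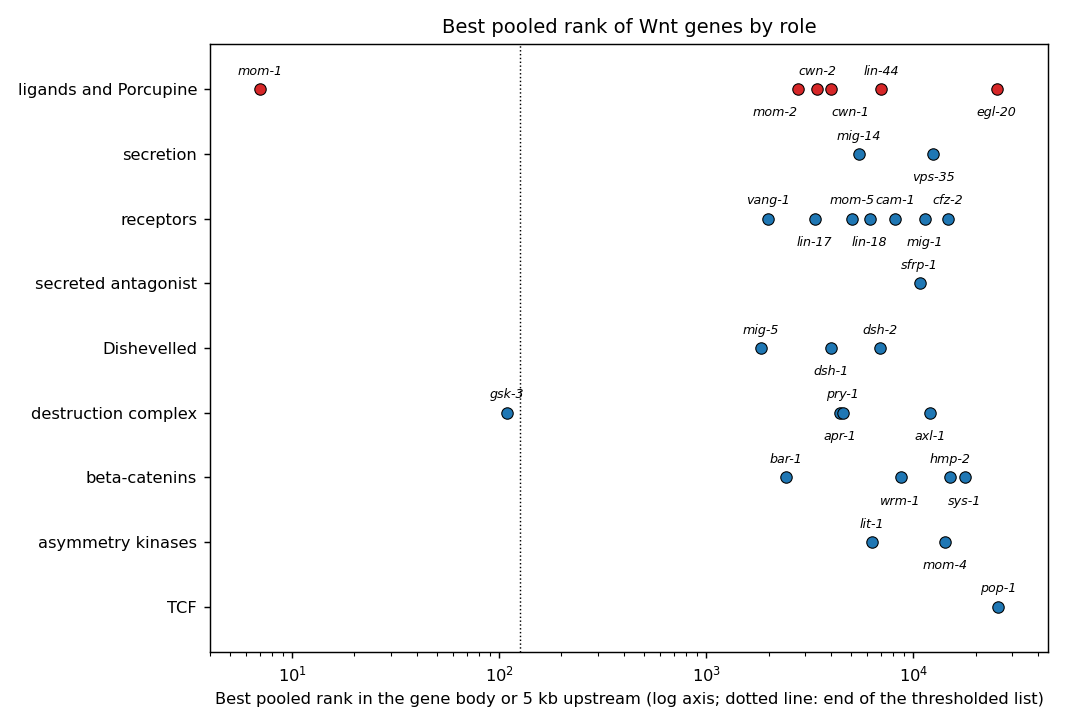
Best pooled rank (x, log axis) of each gene with any pooled summit in its body or 5 kb upstream, by role in the pathway, with the 6 ligand and Porcupine genes in red and the other pathway genes in blue. mom-1 at rank 7 and gsk-3 at 109 lie left of the dotted line that ends the thresholded list, and kin-19 and snx-3 had no pooled summit and are not drawn.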

How the data were processed

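ChIP-seq of eGFP-tagged SMA-9 in whole L2 larvae was deposited as peak lists, 1 relaxed list per replicate and 1 from the pooled reads, each of 30000 peaks, and a thresholded list of 125. The deposited signal (column 7) is the authors' own peak value with no scale stated, and the deposited score (column 9) has an unknown scale and was not used to rank. Per the text deposited beside them, the relaxed lists in ce11 served to compute an irreproducible discovery rate. They are labelled as peaks and background. The aligner, the caller and the cutoff of that rate were not given in the sources used here. Read depth is unknown.

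Peaks were ranked by signal within each list with Python 3.11.15 and pandas 2.3.3. The thresholded list held the 125 strongest pooled peaks, as tested on the files. Summits are peak centres, and coordinates are 1-based. Genes came from Ensembl release 115. Replicate peaks were matched by an overlap of at least 1 bp, taking the nearest summit. The assignment, overlap and motif steps were tested on simulated data.

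The members, the pathway list, the motifs and the rule for named genes were chosen with earlier results of these data known. Named genes are the 6 listed, pathway genes with a thresholded peak or the best rank of their role, the genes nearest or around the best peaks, and the 3 peaks most alike. Neighbouring genes of other peaks, the pathway genes without a peak, lin-17, and the details of secondary peaks were chosen after their values were seen. No test was planned, since there is 1 group. The ce10 lists were not used here.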

Additional observations from a re-analysis of the deposited data

How the results depend on the processing

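A thresholded peak was found at 1 of the 6 genes, mom-1, with 2 kb or 10 kb upstream (background 0.451% and 1.28% of coding genes), with the upper 62 peaks of the thresholded list (0.355%), and with the strongest 125 peaks of replicate 2 (0.931%) or replicate 1 (0.756%) alone. The position of the summit in the gene body and its high ranks in each list fixed mom-1 in these counts beforehand. By nearest protein-coding start, an alternative chosen after seeing the data, the count was 0 (background 0.571%). For the other pathway genes the count was 0 with 2 kb upstream and with the upper 62 peaks, and 0 in each case without replicate 1 or 2. The median best rank of the 6 genes ranged from 2732 to 10197 when one replicate was left out, was 8661 with 2 kb and 3394 with 10 kb upstream. Peak density without one replicate ranged from 3.07 to 3.48 per 10 kb. The share of the 19 peaks in both replicates was 10.5% with summits within 100 bp, against 17.2% of all pooled peaks, and 21.1% against 24.7% with an overlap of at least 50% of the peak. Mean GC in 100 bp windows was 36.6%. The causes were not tested. No paired analysis was possible because there is 1 group. Depth is unknown, so weak peaks have no limit of detection.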
